A study of Mus musculus with 12 samples.

Results

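Most ZnT proteins (Slc30a genes) move zinc, and in the case of ZnT10 manganese, out of the cytosol. They do so across the plasma membrane or into vesicles, the Golgi and other organelles. They oppose the ZIP proteins (Slc39a genes), which carry metal into the cytosol. In the intestinal epithelium ZnT1 at the basolateral membrane is known to pass dietary zinc to the blood, ZnT2 is known to load zinc into the granules of Paneth cells, and ZnT10 is known to export manganese at the apical membrane. The 8 genes described here, Slc30a1, Slc30a2, Slc30a4, Slc30a5, Slc30a6, Slc30a7, Slc30a9 and Slc30a10, were chosen by symbol from the 53715 genes of an expected-count table. All 8 passed the filter on low counts. Of the other Slc30a genes of mouse, Slc30a3 had 0 to 2 counts per library and Slc30a8 had 0 in all 12, which allows up to 3 counts, or at most 0.200 counts per 1000000 (CPM), in any library. No test was run on these.

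The libraries were made from the mucosa of ileum and colon of 8-week-old male C57BL/6J mice. Control mice carried floxed Slc39a8 alleles (Slc39a8-fl/fl) by the labels. In the study's methods the controls also included wild-type mice and mice with Villin-Cre but no floxed allele. Slc39a8-IEC KO mice (Slc39a8-fl/fl with Villin-Cre) were bred to delete the gene of this importer of manganese and zinc in intestinal epithelial cells. The Villin promoter drives Cre in the epithelium, and mucosa also holds other cells in which the gene is not deleted. Each of the 4 groups, ileum control, ileum KO, colon control and colon KO, had 3 libraries from 3 mice, and the labels do not say whether ileum and colon came from the same mice.

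Depth was 16749138 to 27903083 counts per library. Slc39a8 itself was at 8.39, 5.22 and 6.59 CPM in ileum control libraries and at 4.35, 2.62 and 2.80 CPM in ileum KO libraries. In colon it was at 20.8, 20.5 and 20.1 CPM in control and at 7.35, 11.5 and 7.93 CPM in KO libraries. In each tissue all KO libraries lay below all control libraries. Over both tissues the log2 fold change was -1.13 (SE 0.17), with an adjusted p of 0.38 in edgeR's quasi-likelihood test, 0.073 in limma-voom and 1.2e-05 in DESeq2. The KO means were 3.26 against 6.73 CPM in ileum and 8.93 against 20.5 CPM in colon, so part of the transcript remained. By qPCR the study reported a larger loss in both tissues, in older male mice. The source of the remaining transcript was not tested. The 2 ileal libraries control replicate 3 and KO replicate 1 stood apart, with summed smooth muscle marker levels of 31.5 and 18.4 CPM against 1670 to 2396 CPM in the other ileal libraries and 2260 to 3555 CPM in colon. Markers were read against the tissue labels. All 5 ileal enterocyte markers were called lower in colon than in ileum in both genotypes. Of 4 colonocyte markers, 3 were called higher in colon in control mice and 1 in KO mice. Ileum KO replicate 2 held colonocyte transcripts, with Car1 at 2632 CPM and Aqp8 at 67.3 CPM. The other ileal libraries had at most 144 and 0.358 CPM, and Aqp8 in colon was at 20.5 to 190 CPM. Slc26a3 in this library, at 266 CPM, was the highest in ileum, while Saa1, at 438 CPM, was not. The part of colonic RNA in this library was not tested. All 6 epithelial markers were called lower in colon in both genotypes, with summed levels of 15364 to 19101 CPM in ileum and 8040 to 9065 CPM in colon. Fewer cells of a type and less RNA per cell cannot be told apart in such bulk libraries.

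The start regions of 3 members are shown because zinc is known to act on such genes through short promoter motifs. Slc30a1, Slc30a5 and Slc30a10 each held a match and differed between ileum and colon of control mice. Slc30a2 and Slc30a6 also differed there and are not shown. A link between motifs and the difference between tissues was not tested. Each sequence runs from 250 bases before to 50 bases after the RefSeq start in build GRCm38.p6, read on the strand of the gene, and capitals mark the motifs searched. The first motif is the core of the metal response element bound by the zinc sensor MTF1, TGCACNC or TGCGCNC on either strand. The second is the zinc transcriptional regulatory element, a palindrome of CACTCC followed within 10 bases by GGAGTG.
Slc30a1 (chr1:191906531-191906830, plus strand): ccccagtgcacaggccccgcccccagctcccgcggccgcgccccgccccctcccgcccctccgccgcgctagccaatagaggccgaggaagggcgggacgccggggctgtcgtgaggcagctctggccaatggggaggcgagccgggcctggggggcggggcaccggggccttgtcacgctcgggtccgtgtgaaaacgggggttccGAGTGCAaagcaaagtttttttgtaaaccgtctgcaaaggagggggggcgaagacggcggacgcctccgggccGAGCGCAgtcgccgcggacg
Slc30a5 (chr13:100833378-100833677, minus strand): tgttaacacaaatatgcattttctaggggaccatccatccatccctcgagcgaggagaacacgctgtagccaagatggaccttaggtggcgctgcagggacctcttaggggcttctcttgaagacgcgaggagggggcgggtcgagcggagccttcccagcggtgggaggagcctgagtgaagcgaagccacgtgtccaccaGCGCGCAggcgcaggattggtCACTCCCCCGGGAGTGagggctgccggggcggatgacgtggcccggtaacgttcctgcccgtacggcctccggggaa
Slc30a10 (chr1:185454598-185454897, plus strand): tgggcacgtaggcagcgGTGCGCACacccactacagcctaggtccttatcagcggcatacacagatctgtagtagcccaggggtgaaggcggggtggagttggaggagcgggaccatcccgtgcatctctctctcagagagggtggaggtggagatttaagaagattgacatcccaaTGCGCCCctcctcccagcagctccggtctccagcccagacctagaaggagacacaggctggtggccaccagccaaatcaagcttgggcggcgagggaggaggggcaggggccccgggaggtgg
Slc30a1 held the metal response core at -43 to -37 and at 31 to 37 relative to the start, both on the reverse strand. Slc30a5 held 1 core, at -48 to -42, and the palindrome at -27 to -12, CACTCCCCCGGGAGTG, with 4 bases between its arms. Slc30a10 held 3 cores, of which the matches at -233 to -227 and -232 to -226 overlap on opposite strands, and the remaining match lies at -73 to -67. The core occurred in 25.7% of 32851 RefSeq start regions of this length. The palindrome occurred in 10 of them (0.0304%), Slc30a5 among these. Slc30a4 held 3 cores, and Slc30a6, Slc30a7 and Slc30a9 held no match in this window. The RefSeq window of Slc30a2, with 2 cores, begins after the start of the GENCODE gene, so it lies within that gene.

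Levels of different genes were compared per kilobase of exon. In ileum of control mice Slc30a4 and Slc30a1 led, with 34.9 ± 8.74 and 26.5 ± 7.84 CPM per kilobase (SD, n = 3), and their libraries overlapped. Slc30a2 (13.7 ± 2.89) and Slc30a5 (12.4 ± 1.51) came next and overlapped with each other, and both were above Slc30a6, Slc30a10, Slc30a7 and Slc30a9, whose means lay between 4.97 and 7.57. In colon of control mice Slc30a10 (39.9 ± 10.5) and Slc30a4 (32.2 ± 1.45) led and overlapped, followed by Slc30a1 (14.5 ± 3.61). Slc30a5, Slc30a6, Slc30a7 and Slc30a9 lay between 4.82 and 5.51 and each overlapped with its neighbour in the order, and Slc30a2 was last at 0.195 ± 0.0443. In KO mice the same members led in each tissue. The sum over the 8 genes spanned 101.6 to 123.8 CPM per kilobase in ileum and 93.5 to 123.7 in colon, so its range was similar while its make-up differed: Slc30a10 held 6.53% of the sum in ileum and 37.1% in colon of control mice, and Slc30a2 held 12.1% and 0.181%. With the length of the longest transcript in place of all exons, Slc30a5 of ileum control libraries moved to 22.6 CPM per kilobase and above Slc30a2, and Slc30a9 moved to 10.8.

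**Figure D1:**
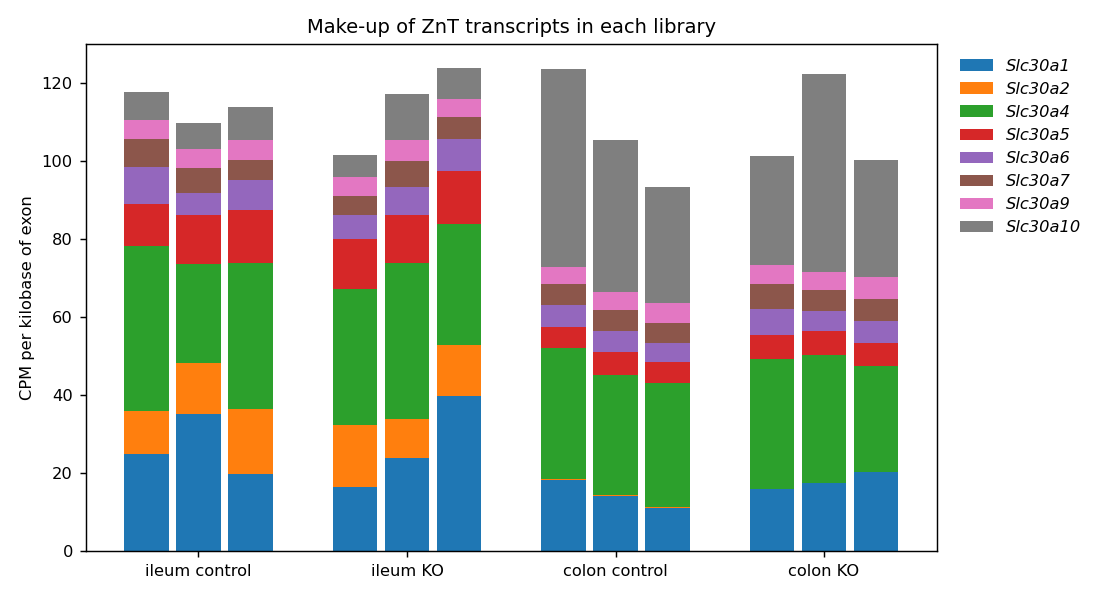
Summed CPM per kilobase of exon of the 8 ZnT genes in each of the 12 libraries, stacked by gene, with 3 bars per group in the order of replicates 1 to 3. The segment of Slc30a10 was the tallest in 4 of 6 colonic bars, that of Slc30a2 was visible in ileum alone, and the bars summed to 93.5 to 123.8.

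The first comparison asked how the 8 genes differed between colon and ileum. In control mice Slc30a10 was called higher in colon and Slc30a1, Slc30a2, Slc30a5 and Slc30a6 lower, whereas Slc30a4, Slc30a7 and Slc30a9 did not pass the test. That is 5 of 8 members at an adjusted p under 0.1, beside 35.9% of the 16558 genes tested (16.2% higher and 19.6% lower). The median log2 fold change (colon over ileum) was -0.39 over the 8 members and 0.02 over all genes. In KO mice Slc30a10 was called higher and Slc30a2 and Slc30a5 lower, 3 of 8 members beside 37.1% of all genes, with medians of -0.25 and 0.01. The groups did not overlap for 5 of 8 members in control mice, beside 40.7% of all genes, and for 3 of 8 in KO mice, beside 50.4%. The control and KO comparisons use different libraries but share 1 estimate of the spread.

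**Figure D2:**
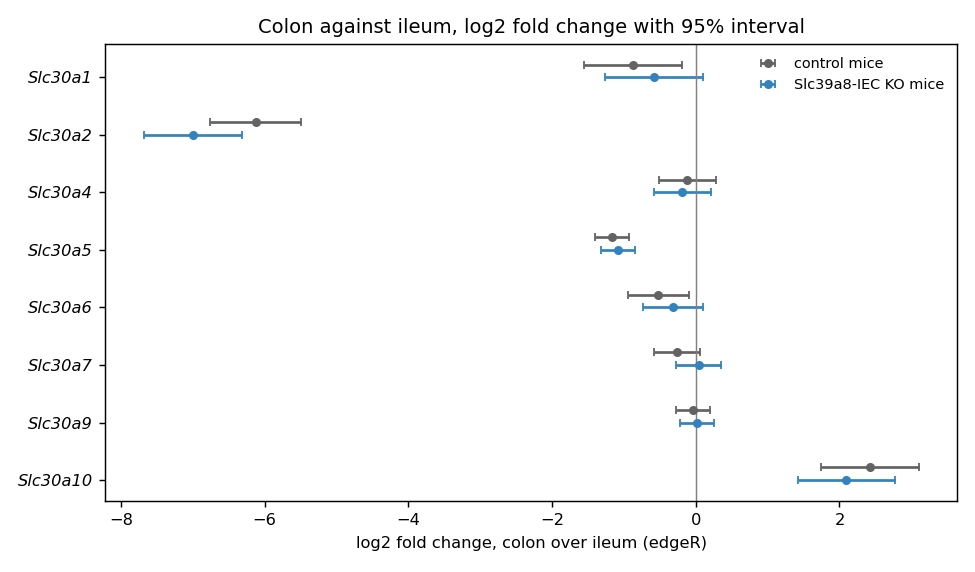
Log2 fold changes of colon over ileum from edgeR for the 8 ZnT genes, with 95% intervals, in control mice (grey) and Slc39a8-IEC KO mice (blue), 3 libraries against 3. Slc30a2 lay near -6 to -7, Slc30a10 above 2 and Slc30a5 near -1 in both genotypes. The intervals of Slc30a4, Slc30a7 and Slc30a9 included 0 in both genotypes, and those of Slc30a1 and Slc30a6 in KO mice only.

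Among the exporters of the plasma membrane, Slc30a10 showed the one call toward colon. Slc30a10, the manganese exporter ZnT10, was at 41.6, 39.5 and 49.0 CPM in ileum control libraries and at 297, 227 and 174 CPM in colon control libraries. In KO mice it was at 33.4, 68.6 and 46.1 CPM in ileum and at 163, 296 and 176 CPM in colon. Every colonic library was above every ileal library, by more than 2-fold between the closest pair (68.6 and 163 CPM). The fold was 5.37 (95% interval 3.35 to 8.59) in control mice, with an adjusted p of 0.00015 in edgeR, and 4.28 (2.69 to 6.80) in KO mice, with an adjusted p of 0.00039. The fractional counts of Slc30a10 matter here, because 533 of its 5836 exon bases (9.13%) also belong to Gm2061, a long noncoding RNA on the opposite strand with up to 775 counts. Gm2061 had 20.6% to 35.7% of the CPM of Slc30a10 in ileum and 11.8% to 19.0% in colon, and it was itself higher in colon in control mice (log2 fold change 1.34, SE 0.27, adjusted p = 0.0031). With the counts of both genes summed, the log2 fold change was 2.24 in control and 1.99 in KO mice, against 2.42 and 2.10 for Slc30a10 alone.

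Slc30a1, the zinc exporter ZnT1, is known to be induced by zinc through MTF1. It was at 130, 184 and 103 CPM in ileum control libraries and at 95.4, 74.3 and 57.6 CPM in colon control libraries. In KO mice it was at 86.0, 124 and 209 CPM in ileum and at 83.5, 91.3 and 106 CPM in colon. The control groups did not overlap and the KO groups did. The log2 fold change was -0.87 (SE 0.31, adjusted p = 0.057 in edgeR) in control mice and -0.58 (SE 0.31, adjusted p = 0.19) in KO mice. The call in control mice was lost without ileum control replicate 2 (-0.62, adjusted p = 0.20), colon control replicate 2 (-0.86, adjusted p = 0.14) or colon control replicate 3 (-0.73, adjusted p = 0.17), with libraries scaled by size alone (-0.64, adjusted p = 0.10), and with replicate number as a block (-0.85, adjusted p = 0.101), all in edgeR. The ileal libraries with few muscle transcripts had the lowest Slc30a1 of their groups, and without these 2 libraries the log2 fold change was -1.07 (adjusted p = 0.0062) in control and -0.82 (adjusted p = 0.023) in KO mice. The part of muscle cells in this was not tested. Of the exon bases of Slc30a1, 8.92% are shared with the antisense gene 1700034H15Rik, which had at most 58.7 counts.

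**Figure D3:**
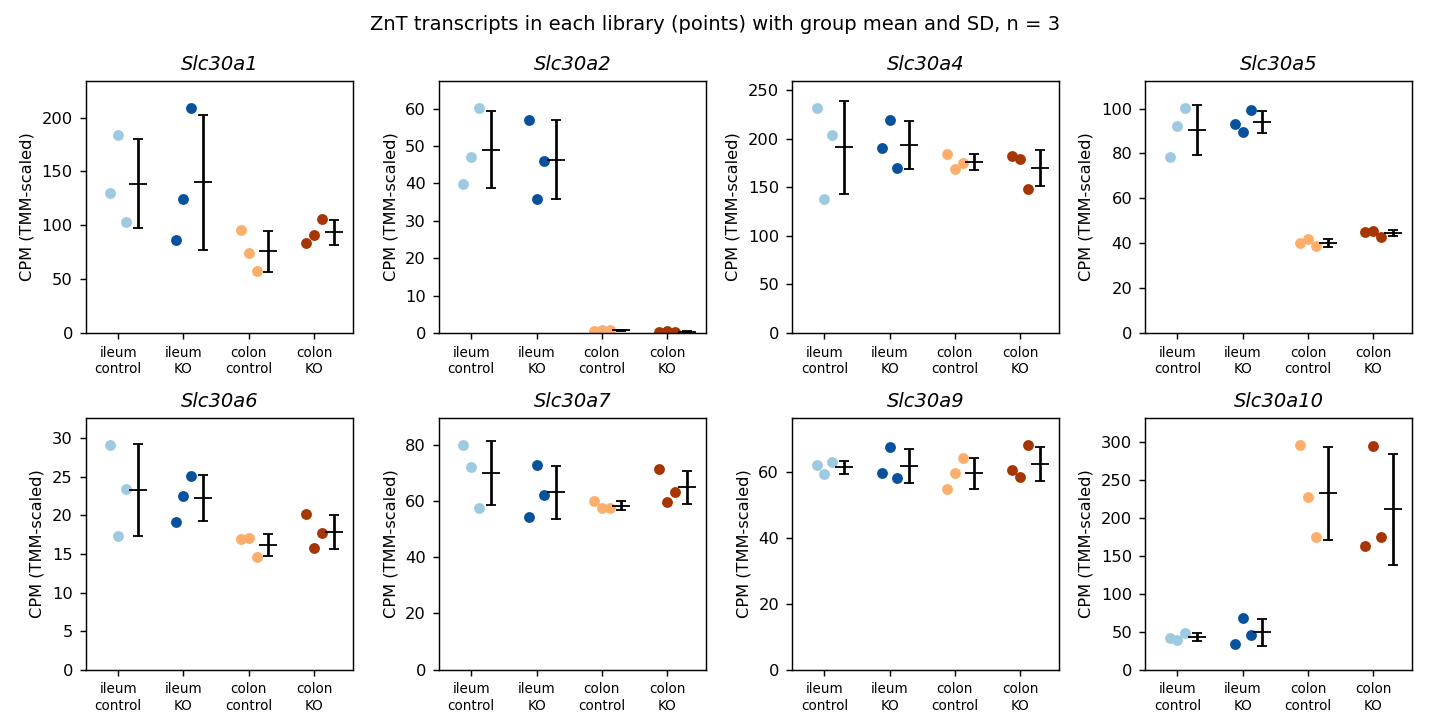
TMM-scaled CPM of each ZnT gene in the 12 libraries (points, in the order of replicates 1 to 3), with the group mean and SD (n = 3) beside them. Each panel has its own axis from 0. Slc30a2 and Slc30a5 were lower in every colonic than in every ileal library and Slc30a10 was higher. The panels of Slc30a1, Slc30a4, Slc30a6, Slc30a7 and Slc30a9 overlapped between tissues.

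Of the transporters of vesicles, Slc30a2 differed most between the tissues and Slc30a4 hardly did. Slc30a2 was at 39.8, 46.9 and 60.1 CPM in ileum control libraries and at 57.1, 35.8 and 46.1 CPM in ileum KO libraries. In colon it was at 0.512, 0.768 and 0.800 CPM in control libraries and at 0.236, 0.466 and 0.374 CPM in KO libraries, which are 10, 16 and 17 and 5, 9 and 9 counts. No colonic library was within a factor of 40 of an ileal library. The level was 69.8-fold lower in colon of control mice (log2 fold change -6.13, SE 0.29, adjusted p = 1.6e-07 in edgeR) and 128-fold lower in KO mice (-7.00, SE 0.31, adjusted p = 1.4e-07).

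Like the ileal enterocyte markers, most markers of Paneth cells were lower in colon, as Slc30a2 was. Paneth cells sit at the base of small intestinal crypts and secrete antimicrobial peptides. The summed level of 7 markers was 4729 to 14383 CPM in ileum and 14.5 to 372 CPM in colon, none of the 7 was at 0 in all libraries of a group, and 6 of 7 were called lower in colon in both genotypes. In colon 63.2% to 96.4% of the sum was Ang4, the marker that was not called, against 2.20% to 4.88% in ileum. Slc30a2 equalled 0.418% to 0.842% of the sum in ileal libraries and 0.0983% to 3.21% in colonic libraries, ranges that overlapped. Over the 6 markers other than Ang4, a sum chosen after seeing the data, the shares did not overlap, at 0.435% to 0.873% in ileum and 2.51% to 11.5% in colon, where these 6 markers summed to 5.34 to 13.5 CPM. The ileal control and KO libraries with the highest marker sums, 14383 and 11546 CPM, also had the highest Slc30a2 of their groups, 60.1 and 57.1 CPM, and these are the libraries with few muscle transcripts. The remaining ileal control libraries kept this order, with sums of 4729 and 7148 CPM and Slc30a2 at 39.8 and 46.9 CPM. The remaining ileal KO libraries did not, with sums of 7840 and 6792 CPM and Slc30a2 at 35.8 and 46.1 CPM. Pancreatic acinar cells, which also express Slc30a2, left little trace, with summed markers of at most 0.141 CPM in any library. The part of Paneth cell number in the level of Slc30a2 was not tested.

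**Figure D4:**
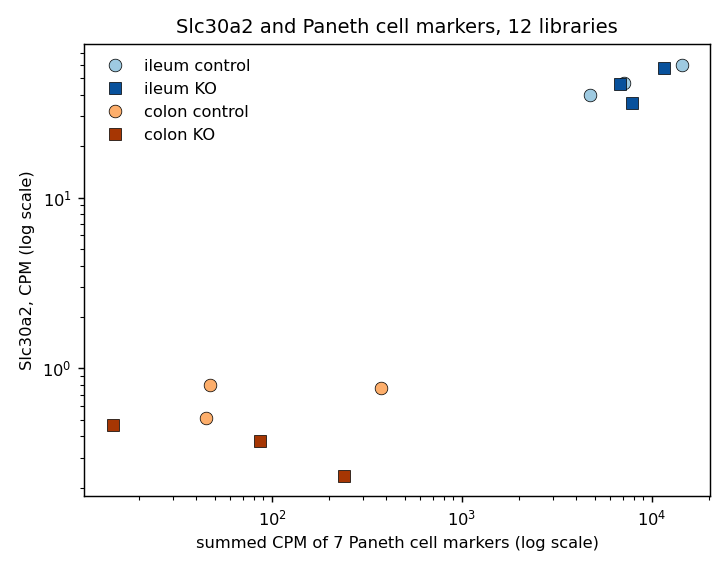
Slc30a2 CPM against the summed CPM of 7 Paneth cell markers, both on log axes, 1 point per library. The 6 ileal libraries sat at 4729 or more marker CPM and 35.8 or more Slc30a2 CPM, and the 6 colonic libraries at 372 or less and 0.800 or less, in 2 separate clusters.

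Slc30a4, whose product ZnT4 fills vesicles with zinc, was high throughout. It ranged from 139 to 232 CPM in ileum (median 197) and from 148 to 185 CPM in colon (median 177). The tissues overlapped, and the log2 fold change was -0.12 (95% interval -0.52 to 0.28) in control and -0.19 (-0.58 to 0.21) in KO mice, with adjusted p-values of 0.66 and 0.47 in edgeR. The coefficient of variation was 25.0% in ileum control and 4.52% in colon control libraries.

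The early secretory pathway is supplied with zinc by ZnT5 and ZnT6, which act as a heterodimer, and by ZnT7, which acts as a homodimer. Slc30a5 was at 78.5, 92.4 and 100.2 CPM in ileum control and at 93.1, 89.5 and 99.2 CPM in ileum KO libraries. In colon it was at 40.0, 42.0 and 38.6 CPM in control and at 45.0, 45.3 and 42.8 CPM in KO libraries. The tissues were far apart relative to a coefficient of variation of 3.04% to 12.2% within groups. The level was 2.25-fold lower in colon of control mice (log2 fold change -1.17, SE 0.11, adjusted p = 1.5e-05 in edgeR) and 2.12-fold lower in KO mice (-1.08, SE 0.11, adjusted p = 2.7e-05). As a share of the summed epithelial markers, which were also lower in colon, Slc30a5 was 0.511% to 0.637% in ileum and 0.426% to 0.564% in colon, so the ranges overlapped on this scale. The part of epithelial cell number in the difference was not tested.

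Slc30a6 was at 29.1, 17.3 and 23.4 CPM in ileum control and at 16.9, 17.1 and 14.5 CPM in colon control libraries. The groups just failed to overlap, at 17.3 against 17.1 CPM. The log2 fold change was -0.52 (SE 0.19, adjusted p = 0.065 in edgeR) in control and -0.32 (SE 0.19, adjusted p = 0.24) in KO mice, where ileum had 19.2, 22.5 and 25.2 CPM and colon 20.1, 15.8 and 17.7 CPM. The call was lost without ileum control replicate 1 (-0.33) or any 1 of the colon control libraries (-0.47 to -0.56), with adjusted p-values from 0.11 to 0.21 in edgeR, and with upper-quartile factors, library size only, no filter or the control libraries alone (0.11 to 0.29). The ratio of Slc30a5 to Slc30a6 per kilobase was 1.14 to 2.25 in ileal libraries and 0.943 to 1.21 in colonic libraries, ranges that overlapped through ileum control replicate 1.

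Slc30a7 ranged from 54.3 to 80.0 CPM in ileum (median 67.1) and from 57.4 to 71.4 CPM in colon (median 60.0). Its log2 fold change was -0.26 (95% interval -0.58 to 0.06) in control and 0.04 (-0.28 to 0.36) in KO mice. The ileal libraries with few muscle transcripts were again the lowest of their groups, at 57.5 and 54.3 CPM, and without them the control value was -0.40 (adjusted p = 0.031 in edgeR). Leaving out the control library of that pair alone gave -0.40 as well (adjusted p = 0.054). With libraries scaled by size alone the value in KO mice was called higher in colon, at 0.32 (adjusted p = 0.074 in edgeR). That scaling moved the median of all genes there from 0.01 to 0.29. The pseudogenes that share exon bases with Slc30a7 had 0 counts.

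Slc30a9, whose product ZnT9 is a zinc exporter of mitochondria, had the smallest fold change between tissues of the 8 members in both genotypes. Within colon groups it was not the least variable. It ranged from 58.3 to 67.8 CPM in ileum and from 54.8 to 68.4 CPM in colon, with a coefficient of variation of 3.20% to 8.26% within groups. The log2 fold change between tissues was -0.04 (95% interval -0.28 to 0.19) in control and 0.01 (-0.22 to 0.25) in KO mice.

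The second comparison asked whether loss of Slc39a8 in the epithelium moved the exporters. In edgeR no member was called in ileum, in colon, over both tissues or in the difference between tissues, beside 0% of the 16558 genes tested in each of these. At an unadjusted p under 0.05, 0, 0 and 1 of 8 members passed over both tissues, in ileum and in colon, against 3.87%, 1.52% and 2.33% of all genes, and for the difference between tissues 0 members against 1.02%. DESeq2 and limma-voom also called no member. The median log2 fold change (KO over control) of the 8 members was 0.03 over both tissues, 0.01 in ileum and 0.10 in colon, against 0.00 in each over all genes.

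**Figure D5:**
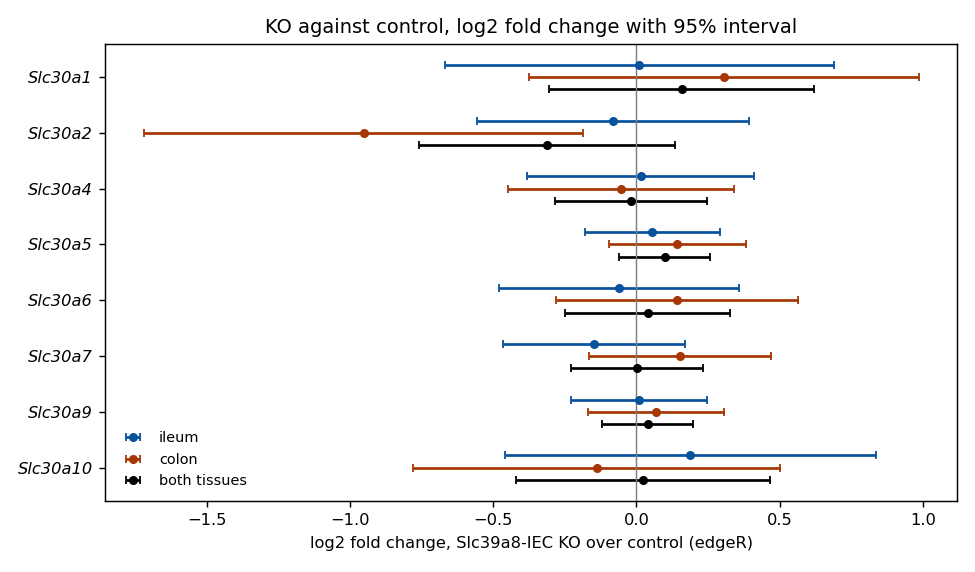
Log2 fold changes of Slc39a8-IEC KO over control from edgeR for the 8 ZnT genes, with 95% intervals, in ileum (blue), colon (orange) and over both tissues (black). Each interval included 0 except that of Slc30a2 in colon (-1.72 to -0.19), which rests on 5 to 17 counts per library.

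The intervals over both tissues give the range of effects that these libraries leave possible. Slc30a2 had the largest estimate, a log2 fold change of -0.31 (95% interval -0.76 to 0.13). Slc30a4 was at -0.02 (-0.28 to 0.24) and Slc30a6 at 0.04 (-0.25 to 0.33). Slc30a10 stood at a log2 fold change of 0.02 (95% interval -0.42 to 0.47) and Slc30a1 at 0.16 (-0.31 to 0.62). The intervals were narrower for Slc30a5 at 0.10 (-0.06 to 0.26), Slc30a9 at 0.04 (-0.12 to 0.20) and Slc30a7 at 0.00 (-0.23 to 0.23). A p that misses the threshold does not show that genotypes were alike. As folds, the intervals ran from 0.959 to 1.20 for Slc30a5 and from 0.920 to 1.15 for Slc30a9, and without the 2 ileal libraries with few muscle transcripts the log2 fold change of Slc30a5 was 0.15 (SE 0.08).

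Slc30a2 and Slc30a5 were the members whose genotype groups did not overlap in colon. Non-overlap was seen for 12.8% of all genes in colon (6.98% higher and 5.85% lower), 3.70% in ileum and 0.411% in both tissues at once. Slc30a2 was lower in all 3 KO than in all 3 control colonic libraries, with a log2 fold change of -0.95 (SE 0.35, unadjusted p = 0.019, adjusted p = 1 in edgeR), while in ileum it was -0.08 (SE 0.22). The difference between the tissues was -0.87 (95% interval -1.77 to 0.03, unadjusted p = 0.057). Slc30a5 was higher in all 3 KO colonic libraries, from 42.8 to 45.3 CPM against 38.6 to 42.0 CPM, at a fold of 1.10 (95% interval 0.936 to 1.30). The exact permutation p (two-sided) was 0.1 for both, the smallest that 3 libraries against 3 allow. Over both tissues it was 0.11 for Slc30a2 and 0.115 for Slc30a5, where 0.005 is the smallest possible. These values exchange genotypes in each tissue separately, as if ileum and colon came from different mice. If mice were shared, fewer arrangements would be valid and the smallest possible p would be larger.

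The study reported less Slc30a10 transcript in enteroid cultures from KO than from control mice, a material other than the mucosa used here. In mucosa Slc30a10 gave opposite values in the 2 pairs of ileal libraries. The ratio of KO to control CPM was 0.682 between the libraries with few muscle transcripts and 1.41 between the means of the other ileal libraries. The single library KO replicate 2, at 68.6 CPM, decided the ileal direction: the log2 fold change was 0.19 with it and -0.12 without it, neither past the threshold. Colonocyte transcripts were also high in this library, with Car1 at 2632 CPM and Aqp8 at 67.3 CPM. The other ileal libraries had at most 144 and 0.358 CPM of these. Whether colonic RNA raised Slc30a10 there was not tested. In colon the log2 fold change of Slc30a10 was -0.14, and its sign also hung on single libraries: it was -0.46 without KO replicate 2, 0.074 without control replicate 1 and 0.00096 without KO replicate 1.

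The same comparisons were read for the genes that stand around the exporters. Of 13 ZIP importers tested, 3 were higher and 2 lower in colon than in ileum of control mice, which is 5 of 13 beside 35.9% of all genes, with a median log2 fold change of 0.20. The largest were Slc39a8, the targeted gene (1.60), Slc39a2 (1.59), Slc39a5, a basolateral zinc importer (-1.39), and Slc39a4, the apical importer of dietary zinc (-0.97), all at an adjusted p under 0.1 in edgeR. Slc39a2 was low, at 0.532, 0.278 and 0.297 CPM in ileum control and 1.33, 0.768 and 1.22 CPM in colon control libraries. In KO mice the count was also 3 and 2, but Slc39a13 was called in place of Slc39a2. Of 11 genes of manganese handling, 3 were higher and 2 lower in control mice and 4 and 2 in KO mice, beside the same 35.9% and 37.1% of all genes. The iron and manganese exporter Slc40a1 was called higher in both genotypes, at 2.42 in KO mice, the Golgi manganese transporter gene Tmem165 was at -0.55 and -0.51 in control and KO mice, and the manganese enzyme Arg2 at -1.48 and -1.55.

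Of 4 zinc response genes tested, 1 was higher and 1 lower in both genotypes: Mt3, a metallothionein (2.23 in control mice), and Mtf1, the gene of the zinc sensor (-1.36). The share called over all genes was 35.9% in control and 37.1% in KO mice. Mtf1 was at 36.1 to 53.8 CPM in ileum and at 14.9 to 18.9 CPM in colon, without overlap. Mt3 was low, at 0.179 to 0.547 CPM in ileum and at 1.43 to 4.87 CPM in colon. Zinc-requiring enzymes of the secretory pathway receive their metal there. Of 9 tested, 3 were higher and 4 lower in each genotype, beside the same shares of all genes. The largest in control mice were all lower: Mmp7, the protease of Paneth cells (-6.04), Ace, the angiotensin-converting enzyme (-5.25), Alpi, the intestinal alkaline phosphatase (-3.62), and Enpp3, an ectonucleotidase (-3.08). The median of the 9 was -1.37, against 0.02 over all genes.

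By genotype edgeR called none of the genes in these 4 lists, in either tissue or over both, while DESeq2 and limma-voom called Slc39a8 over both. At an unadjusted p under 0.05 over both tissues, 3.87% of all genes passed. Of the lists, 1 of 13 ZIP importers, 2 of 4 zinc response genes, 1 of 11 manganese genes and 0 of 9 enzymes did. The importer and manganese gene was Slc39a8, and the zinc response genes were Mt1 and Mt3. Mt3 was at 1.43, 2.16 and 1.51 CPM in colon control and at 3.96, 4.87 and 4.48 CPM in colon KO libraries. Its log2 fold change was 1.38 in colon (SE 0.38, unadjusted p = 0.0039 in edgeR) and 0.02 in ileum (SE 0.46). Chosen after its values were seen, Mt1, the metallothionein that binds cytosolic zinc and shares its sensor with Slc30a1, was at 168, 150 and 77.9 CPM in ileum control and at 73.2, 719 and 646 CPM in ileum KO libraries. The groups overlapped through KO replicate 1, and the lowest library of each genotype was the one with few muscle transcripts. The log2 fold change was 1.86 (SE 0.61, unadjusted p = 0.011, adjusted p = 1 in edgeR). Mt2, a metallothionein of the same list, was at 0.03 (SE 0.52, unadjusted p = 0.95). Slc30a1 in the same 3 KO libraries was 86.0, 124 and 209 CPM, so the lowest library was shared and the order of the others was not.

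The genes most alike in pattern were found by the root mean square difference of centred log2 CPM over the 12 libraries, among 16551 gene symbols. Near to Slc30a2 were Mmp7 (0.43) and the Paneth cell defensin Defa35 (0.44), where the spread of Slc30a2 itself was 3.18. Defa35 averaged 9.57 CPM in ileum and was at 0 in colon, so its distance depends on the prior count of 2 added before the log. Nearest to Slc30a10 were Mctp1 (0.273), which had only 0.295 CPM in ileum and 1.79 CPM in colon, Higd1a (0.273) and Slc35a1 (0.28), against a spread of 1.18. Nearest to Slc30a5 were Canx, a chaperone of the endoplasmic reticulum (0.066), Cers2, a ceramide synthase (0.069), and Sec23b, a coat protein of vesicles leaving that compartment (0.091), against a spread of 0.57. The points share their libraries and the step between the tissues.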

How the data were processed

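RNA-seq libraries from the mucosa of ileum and colon, 3 per tissue and genotype, were used. RNA was primed with oligo-dT and sequenced in 150-bp pairs. The authors deposited expected counts (estimated reads per gene, not normalized, 93.7% of values whole within 0.001). Per the submitters' processing notes STAR and mm10 were used. The study's summary names unique reads, duplicate removal and a counter, but not the tool behind the expected counts. Counting by strand is not stated, so overlapping antisense genes cannot be told apart. Of 53807 lines, 92 spike-in lines held 0% of counts and were left out. Of 53715 identifiers, 53620 matched a GENCODE M21 gene without its version and 51464 with it. Slc30a6 matched only without its version. Start regions came from RefSeq (GRCm38.p6) and matched 8 of 8 members.

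Expected counts were rounded. In edgeR 4.0.16 (R 4.3.3), filterByExpr kept 16558 genes, TMM factors scaled the libraries, and the quasi-likelihood test with Benjamini-Hochberg adjustment over all of these was called at 0.1, as in the study. Genotype over both tissues had tissue as a term, and the remaining comparisons came from 1 model of the 4 groups. These models took all libraries as independent. If ileum and colon shared mice, p-values over both tissues could be too small and intervals too narrow. Intervals are 95%, for the spread between mice in these libraries. CPM is relative to the TMM-scaled library, and per-kilobase values divide by all exon bases of the gene. Exact permutation tests (two-sided) used log2(CPM + 0.5), 400 arrangements over both tissues and 20 within 1. DESeq2 1.42.0, limma 3.58.1, other scalings, no filter, counts not rounded, a replicate block, other sets of libraries, other pseudocounts and another length were alternatives, and summing Slc30a10 with Gm2061 was chosen after seeing the data. Scripts were tested on simulated data.

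The members and lists were chosen with earlier results of these data known. Named were the 8 members, Slc30a3, Slc30a8, Slc39a8, at most 4 called genes of each of 4 lists by size of log2 fold change (ZIP importers, zinc response, manganese handling, zinc-requiring secretory enzymes) and, for the 3 members that differed most between tissues, the 3 most alike genes, of which 1 is not reported here. Lists of cell type markers were read as summed CPM. Other experiments of the study were not analysed here.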

Additional observations from a re-analysis of the deposited data

How the results depend on the processing

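Slc30a2, Slc30a5 and Slc30a10 kept direction and call between tissues in 23 of 23 alternatives in both genotypes. Slc30a1 was called in 18 and Slc30a6 in 15 of 23 in control mice. No member was called by genotype in any. Of 1087 recomputed fold changes, 998 kept direction and side of the threshold, 13 lost and 5 gained a call and 71 changed sign, none of these being called. Depth limits Slc30a2 in colon, with 5 to 17 counts. For each change below the cause was not tested.

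The count of genes called by genotype over both tissues, 0 in edgeR, was 4 with DESeq2, 1 with limma-voom and 5 without the 2 ileal libraries with few muscle transcripts. In ileum it was 2, 1 and 3. In colon it was 1 with the libraries of the comparison only, and for the difference between tissues 1 with DESeq2. Members called between tissues in control mice were 5, and 3 with library size only. The genes called higher and lower in colon of control mice, 2689 and 3251 with TMM, were 3373 and 2741 with upper-quartile factors and 4156 and 2102 with library size only, which moved the median log2 fold change of all genes from 0.02 to 0.24.

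Sign changes of log2 fold changes by genotype over both tissues were -0.013 for Slc30a10 with limma-voom, -0.027 with the replicate block and -0.013 with Gm2061 summed, -0.012 for Slc30a7 with upper-quartile factors, and 0.058 (library size only) and 0.0016 (without the 2 ileal libraries) for Slc30a4. In ileum they were -0.046 for Slc30a1 with limma-voom, -0.016 with upper-quartile factors, -0.0065 with the block and -0.0033 with the libraries of the comparison only, -0.012 for Slc30a4 and -0.019 for Slc30a9 with upper-quartile factors, -0.0027 for Slc30a9 with the libraries of the comparison only and 0.026 for Slc30a6 without the 2 libraries. In colon Slc30a4 was at 0.049 with library size only. Between tissues in control mice Slc30a9 was at 0.057 with upper-quartile factors and 0.18 with library size only, and Slc30a4 at 0.099 with the latter. In KO mice Slc30a4 was at 0.081 with library size only, and Slc30a7 and Slc30a9 at -0.048 and -0.0029 without the 2 libraries.

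Leaving out 1 library at a time gave 0 to 1 genes called by genotype over both tissues and in ileum, and 3 to 6 members called between tissues in control mice. By genotype over both tissues the ranges were -0.0031 to 0.29 for Slc30a1, -0.11 to 0.048 for Slc30a4, -0.028 to 0.14 for Slc30a6, -0.054 to 0.067 for Slc30a7 and -0.13 to 0.14 for Slc30a10. In ileum they were -0.40 to 0.27 for Slc30a1, -0.26 to 0.098 for Slc30a2, -0.17 to 0.17 for Slc30a4, -0.036 to 0.14 for Slc30a5, -0.23 to 0.13 for Slc30a6, -0.060 to 0.052 for Slc30a9 and -0.12 to 0.40 for Slc30a10. In colon they were -0.13 to 0.050 for Slc30a4 and -0.46 to 0.074 for Slc30a10, and for the difference between tissues -0.23 to 0.12 for Slc30a4. Between tissues they were -0.31 to 0.038 for Slc30a4 and -0.13 to 0.013 for Slc30a9 in control mice, and -0.060 to 0.16 for Slc30a7 and -0.052 to 0.083 for Slc30a9 in KO mice.

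Between ileum and colon, same-numbered libraries had correlations of their deviations of -0.08 to 0.17 in control and 0.051 to 0.25 in KO mice, and 3 of 6 ileal libraries correlated best with their own number. Since not every pair was above 0.1, the numbers were not used to pair libraries, and whether they mark shared mice is not known. With the replicate block, 5333 genes and 4 members were called between tissues in control mice, Slc30a1 being lost at an adjusted p of 0.101, and it changed no other call of a member.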

Other observations

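Other cell type markers differed between the tissues beside the exporters. At the same threshold 35.9% of all genes were called in control and 37.1% in KO mice. In control mice 4 of 5 goblet cell markers were called lower and 1 higher in colon, 4 of 4 T cell markers and 1 of 4 plasma and B cell markers were called lower, and 1 of 3 macrophage markers was lower. Enteroendocrine markers were higher for 2 of 3, and enteric neuron markers for 1 of 4 in control and 4 of 4 in KO mice. None of the 5 smooth muscle markers was called between tissues. Their standard errors in control mice were 1.21 to 1.32 on the log2 scale, with the ileal libraries of few muscle transcripts included. Equal muscle content is therefore not shown.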
